A study of Mus musculus with 267 samples.

Results

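In bone marrow-derived macrophages (BMDMs) of C57BL/6J (C57) mice, 1052 EGR2 binding sites were listed as peaks 1 or 6 hours after IL-4 and in neither the untreated (basal) nor the 24-hour list. They were chosen by the EGR2 peak lists themselves. Peaks of the 1-hour list (13562) and of the 6-hour list (13072) were merged where they shared at least 1 bp, and a merged site was kept if it shared no base with a peak of the basal list (8437) or the 24-hour list (29407). The 1052 transient sites were 6.53% of the 16114 merged early sites and lay among 30804 merged EGR2 sites of all 4 lists. Of these, 377 were in the 1-hour list alone, 463 in the 6-hour list alone and 212 in both. Only 20.2% of the transient sites were therefore in both early lists, against 65.3% of all early sites. Since EGR2 peaks chose the sites, EGR2 tags in the same libraries are given as a description with no test, whereas histone marks, RNA polymerase II (Pol II), other factors and other strains were not used to choose them.

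Bone marrow of female mice 8 to 12 weeks old was cultured for a week in M-CSF, the growth factor that yields macrophages, and the cells then received IL-4 (20 ng/ml) for 1, 6 or 24 hours, or none at basal. The C57 mice used here carried no transgene or deletion. EGR2 peak lists at basal and 24 hours only were taken from wild-type macrophages of SPRET/EiJ (SPRET), PWK/PhJ (PWK), NOD/ShiLtJ (NOD) and BALB/cJ (BALB) mice. The study's methods call the ChIP-seq replicates biological, but neither they nor the labels say whether replicate libraries came from separate mice or cultures, so p-values measure the spread between these libraries alone. All 8 macrophage markers (Adgre1, Csf1r, Cd68, Lyz2, Itgam, Mertk, Fcgr1 and Spi1) carried H3K27ac, at library means of 123 to 511 normalized tags. Of the markers of T cells, B cells, neutrophils and fibroblasts, most had no open region at the gene start, and the highest values were 46.2 tags at Ms4a1 and 45.7 at S100a8.

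IL-4 acts through its receptor and JAK kinases to phosphorylate STAT6, which enters the nucleus and binds DNA at genes of the alternative macrophage program within minutes. EGR2 is a zinc finger factor of the early growth response family that binds a GC-rich element around GCGTGGG, and it is itself induced by IL-4 in macrophages. PU.1 and C/EBPβ are factors that establish the macrophage enhancer repertoire, PPARγ is a nuclear receptor of lipid metabolism, and acetylation of histone H3 at lysine 27 (H3K27ac) marks active promoters and enhancers.

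The transient sites were weak members of their lists. Of the 589 in the 1-hour list, 84 (14.3%) had the top peak score of 1000, which 53.7% of the whole list had. Of the 675 in the 6-hour list, 102 (15.1%) had it, against 48.7% of the list. The median deposited count per peak was 54 against 83 in the 1-hour list and 71 against 106 in the 6-hour list. The sites were 201 to 476 bp wide, with a median of 238 bp. The closest basal or 24-hour peak was 1 to 2309722 bp away, with a median of 2544.5 bp, and it was within 200 bp for 116 sites (11%) and within 500 bp for 277 (26.3%). Just inside the rule were sites nearest to Ripk3, Pnrc2 and Peak1, each 1 bp from an excluded peak. Just outside it was a site on chromosome 6 at chr6:99519022-99519236 that overlapped such a peak by 2 bp, and 17 early sites were removed by an overlap under 50 bp. Of the other early sites, 14810 overlapped a 24-hour peak and 252 a basal peak alone.

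Sequences of 8 sites are shown as 200 bases around the site centre (mm10, plus strand, from the RefSeq genome of that build), because they carry the letter patterns that the results below turn on. Capitals mark matches, on either strand, to a loose EGR pattern, GNGTGGGNG, or to a STAT6 pattern, TTCNNNNGAA. The promoter of Arg1, which encodes arginase 1 and is the classic marker of IL-4-treated mouse macrophages, had a match of each kind. It was picked for display after its values were seen.
Arg1, promoter, chr10:24927754-24927953: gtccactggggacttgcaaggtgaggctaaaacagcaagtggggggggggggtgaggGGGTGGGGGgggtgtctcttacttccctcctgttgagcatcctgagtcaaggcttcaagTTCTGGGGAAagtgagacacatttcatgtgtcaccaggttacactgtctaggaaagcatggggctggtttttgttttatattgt
The sites nearest Fas, Rnf19b, Cilp2 and Zcchc2 were among the best scored of their lists. Fas encodes a death receptor and Rnf19b a ubiquitin ligase. The Cilp2 window, which lies in an intron of Pbx4, is an array of near-identical tandem units, and the Zcchc2 window holds a CA repeat.
Fas, promoter, chr19:34290296-34290495: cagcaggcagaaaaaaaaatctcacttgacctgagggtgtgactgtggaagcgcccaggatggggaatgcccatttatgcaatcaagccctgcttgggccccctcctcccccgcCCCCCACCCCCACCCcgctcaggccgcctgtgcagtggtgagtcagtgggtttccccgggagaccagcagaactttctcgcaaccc
Rnf19b, intergenic, chr4:129048902-129049101: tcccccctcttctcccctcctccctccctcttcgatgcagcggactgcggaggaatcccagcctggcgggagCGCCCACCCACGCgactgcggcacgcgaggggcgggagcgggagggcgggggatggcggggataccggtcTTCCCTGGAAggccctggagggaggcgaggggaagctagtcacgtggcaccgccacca
Cilp2, intron of Pbx4, chr8:69866951-69867150: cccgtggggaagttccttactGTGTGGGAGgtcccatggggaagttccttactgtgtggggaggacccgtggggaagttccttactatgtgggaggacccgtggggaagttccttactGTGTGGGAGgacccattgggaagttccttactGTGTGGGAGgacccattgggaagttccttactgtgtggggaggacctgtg
Zcchc2, intergenic, chr1:105925345-105925544: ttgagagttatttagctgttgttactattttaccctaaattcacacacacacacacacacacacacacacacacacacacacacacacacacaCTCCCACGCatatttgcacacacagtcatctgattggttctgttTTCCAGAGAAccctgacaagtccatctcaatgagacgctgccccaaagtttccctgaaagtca
The windows nearest Socs1 and Mreg were sites of the 1-hour list alone that showed among the largest H3K27ac rises, and each held a STAT6 match and no loose EGR match. Socs1 encodes an inhibitor of JAK kinases, and Mreg encodes melanoregulin, a protein of lysosome and melanosome transport.
Socs1, 85156 bp from the gene start in an intron of Clec16a, chr16:10700280-10700479: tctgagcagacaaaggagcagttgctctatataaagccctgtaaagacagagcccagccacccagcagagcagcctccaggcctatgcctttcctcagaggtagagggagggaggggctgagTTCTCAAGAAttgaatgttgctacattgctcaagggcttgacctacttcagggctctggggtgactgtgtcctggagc
Mreg, intergenic, chr1:71982717-71982916: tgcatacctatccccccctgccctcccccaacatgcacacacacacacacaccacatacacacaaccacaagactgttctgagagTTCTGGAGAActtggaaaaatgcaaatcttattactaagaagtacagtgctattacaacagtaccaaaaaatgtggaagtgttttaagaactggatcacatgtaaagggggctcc
The window nearest Ttc7b, also picked after its values were seen, stands for the sites of the 6-hour list in GGA repeats outside open chromatin.
Ttc7b, intergenic, chr12:100537810-100538009: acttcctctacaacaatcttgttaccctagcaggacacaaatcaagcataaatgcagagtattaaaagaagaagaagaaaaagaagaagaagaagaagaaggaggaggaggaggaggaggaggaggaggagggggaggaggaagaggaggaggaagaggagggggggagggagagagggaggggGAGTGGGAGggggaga

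EGR2 tags (normalized to a library total of 10000000) came from the authors' EGR2 tag table, in which 762 of the 1052 sites have a row. They share 759 distinct rows, over which sites are counted here. The 290 without a row were all in the 1-hour list alone, so tags describe the 6-hour sites far better than the 1-hour ones. The condition marks of that table differ from the lists: 611 of the 762 were marked at 1 or 6 hours and at neither other time, whereas 150 were marked at basal and 11 at 24 hours. At these sites the median was 13.6 and 24.2 tags in the basal libraries, 12.6 and 24.1 at 1 hour, 36.7 and 41.8 at 6 hours, and 26.5 and 27.8 at 24 hours (replicates 1 and 2). Both 6-hour libraries were above both 24-hour libraries at 310 of 759 sites (40.8%, against 5.75% of all 30675 sites of the table) and above all 4 basal and 24-hour libraries at 283 (37.3%, against 4.83%). Both 1-hour libraries exceeded both basal libraries at 81 sites (10.7%, against 2.70%). The rule selected for these orders, so nothing is read from them. The 87 sites of the 1-hour list alone that have tags did not follow the order of the lists, with medians of 25.8 and 33.6 at basal, 16.3 and 38.6 at 1 hour, 26.2 and 43.3 at 6 hours and 45.8 and 32.6 at 24 hours. Both 1-hour libraries exceeded both basal ones at 9 of them (10.3%). At 449 sites (59.2%) the higher 24-hour library reached the lower 6-hour library, and at 241 (31.8%) the higher basal library did. The libraries are of bulk cells, so weaker binding in all cells and binding in fewer cells cannot be told apart. The plot of EGR2 tags by library shows the same medians beside those of early sites that stayed listed at 24 hours, which went from 31.4 and 47.4 tags at 6 hours to 56.5 and 39.4 at 24 hours.

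**Figure D1:**
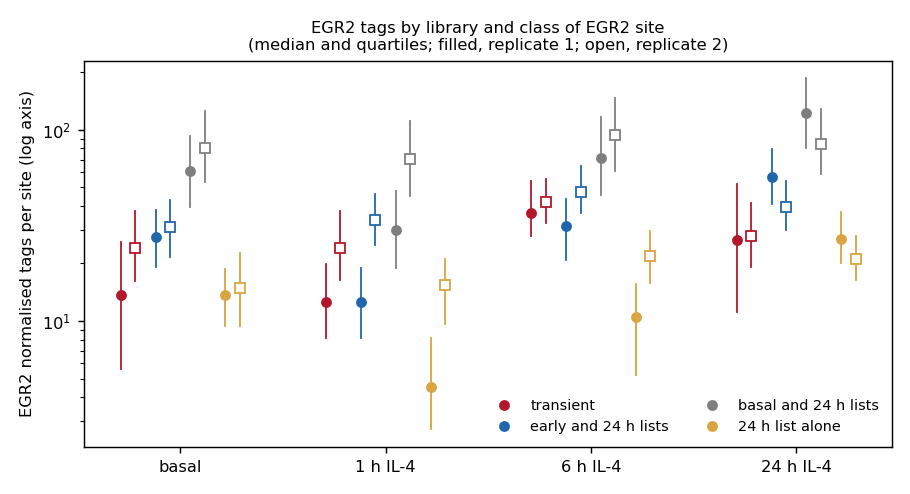
EGR2 tags per library (y axis, normalized tags, log scale) at basal, 1, 6 and 24 hours of IL-4 for the 4 classes of EGR2 site; points are medians, bars span the quartiles, and the replicates are drawn separately. The medians of the transient sites are highest at 6 hours in both replicates (36.7 and 41.8 tags), against 13.6 and 24.2 at basal.

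Replicate libraries differed widely at basal, 1 and 24 hours. The basal replicates differed by at least 4-fold (tags + 1) at 146 of 759 transient sites (19.2%), nearly always with replicate 2 higher (19.1%), against 1.20% of early sites that stayed listed at 24 hours and 1.90% of sites listed at basal and 24 hours. The 24-hour replicates differed that much at 102 sites (13.4%, against 0.198% and 0.0866%). The 1-hour replicates did so at 12.5% (against 25.3% and 13%), and the 6-hour replicates at 1.71% (against 9.21% and 2.52%). At the sites of the 1-hour list alone the 1-hour replicates were that far apart at 18.4%, and the basal ones at 3.45%. A site had to be found in both replicates at 1 or 6 hours to be listed, so the rule fixes part of this contrast between times. The EGR2 libraries held between 5728050 and 22280181 tags, and between 5.38% and 22% of them fell in the sites of the table, with the lowest share in replicate 1 at 1 hour. The part of this spread in the listing of the sites was not tested.

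Among single sites, the Arg1 promoter site (chr10:24927749-24927960, 370 bp upstream of the start, in both early lists) had 1.87 and 4.03 EGR2 tags at basal, 25.3 and 27 at 1 hour, 40.1 and 53.0 at 6 hours and 12.1 and 22.1 at 24 hours. No library of any time overlapped those of another here, and 24 hours lay between basal and 1 hour. Near Ocstamp, which encodes a protein of osteoclast and giant cell fusion, tags were 4.68 and 2.69, then 13.6 and 17.4, 43.6 and 42.8, and 31.0 and 10.6, so 6 hours was again highest in both libraries. An intronic site 4561 bp from a start of Cd36, the scavenger receptor for fatty acids and oxidized lipoproteins, had 19.2 and 8.06 at basal, 20.8 and 21.2 at 1 hour, 52.4 and 60.1 at 6 hours and 35.0 and 16.3 at 24 hours. The Zfp36 promoter, of the gene for the mRNA-destabilizing protein tristetraprolin, had 59.9 and 94.0, 56.0 and 89.7, 155 and 131, and 79.4 and 75.8.

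Of 5 further sites, Rnf19b, Cilp2 and Ripk3 also had each 6-hour library above every other library, and Fas and Pparg did not. Fas had 74.0 and 228 tags at basal, 68.6 and 296 at 1 hour, 192 and 416 at 6 hours and 182 and 246 at 24 hours, and its basal and 6-hour libraries overlapped. Rnf19b had 126 and 192, 229 and 312, 548 and 361, and 345 and 299. Cilp2, although in the 1-hour list alone, had 22 and 234 at basal, 122 and 199 at 1 hour, 264 and 248 at 6 hours and 28.3 and 174 at 24 hours. Its basal replicate 2 came close to the 6-hour values that basal replicate 1 lay far below. The site 11396 bp upstream of Pparg, the gene for PPARγ, had 22.7 and 62.6 tags at 6 hours and 80.8 and 29.8 at 24 hours, which overlapped. Ripk3, a kinase of necroptosis and one of the sites 1 bp from an excluded peak, had 22.9 and 22.8 at basal, 57.6 and 58.6 at 6 hours and 31.4 and 32.6 at 24 hours. Other named sites varied too. At Gpc1 tags were 34.9 and 65.2 at 6 hours and 96.5 and 72.0 at 24 hours. At Peak1 they were 83.8 and 56.0, then 98.3 and 107, so both sites were higher at 24 hours. The 6-hour and 24-hour libraries overlapped at Stt3b, Traf1 and Zcchc2. Hmga2, Nmur1, Cdkn2a and Pnrc2 had each 6-hour library above every other library.

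The very highest counts lay outside IL-4 genes. The site with the most counts in both early lists (606 and 620) was on an unplaced contig and had 754 to 1554 tags at basal and 24 hours alike. Another 3 lay close together on chromosome 17 over the genes Gm26917, CT010467.1 and Gm42418 of the ribosomal RNA locus, where Esp38 has the nearest coding start. The annotation of the 974 nearest genes was otherwise scattered: 68 genes were nearest to at least 2 sites and 8 to at least 3. Of the 4 sites nearest Frmd8, 3 lay over Neat1, the noncoding RNA that scaffolds paraspeckles, and their 24-hour tags overlapped those at 6 hours (at the strongest, 66.0 and 134 against 47.1 and 104). Tet2, a DNA demethylase gene, had 3 sites, of which its promoter site was strongest, with 49.2 and 153 tags at basal and 196 and 153 at 6 hours.

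Promoters (within 1000 bp of a start) held 408 of the transient sites (38.8%, exact 95% binomial interval 35.8 to 41.8), introns 318 (30.2%) and intergenic DNA 310 (29.5%). The median distance to the nearest start was 4391 bp. Early sites that stayed listed at 24 hours were at promoters in 31.1% of cases, sites listed at basal and 24 hours in 54.0% and sites of the 24-hour list alone in 21.4%. All intervals given here and below cover counting error only, since each list was 1 list per group with no replicates.

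The 1-hour and the 6-hour sites differed in how often they lay in open chromatin. Of all transient sites, 822 (78.1%) overlapped a region of the study's ATAC-seq peak set, as did 92.0% of those in the 1-hour list alone, 83.4% of those in both lists and 64.6% of those in the 6-hour list alone. The other classes stood at 91.9% (early and 24 hours), 96.3% (basal and 24 hours) and 80.4% (24 hours alone). The 822 sites fell in 813 regions, of which 80.1% were open at basal, 82.7% at 1 hour, 78.2% at 6 hours and 73.2% at 24 hours. Regions open at 1 or 6 hours and at neither other time made up 8.49%, compared with 13.6% of all open regions.

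**Figure D2:**
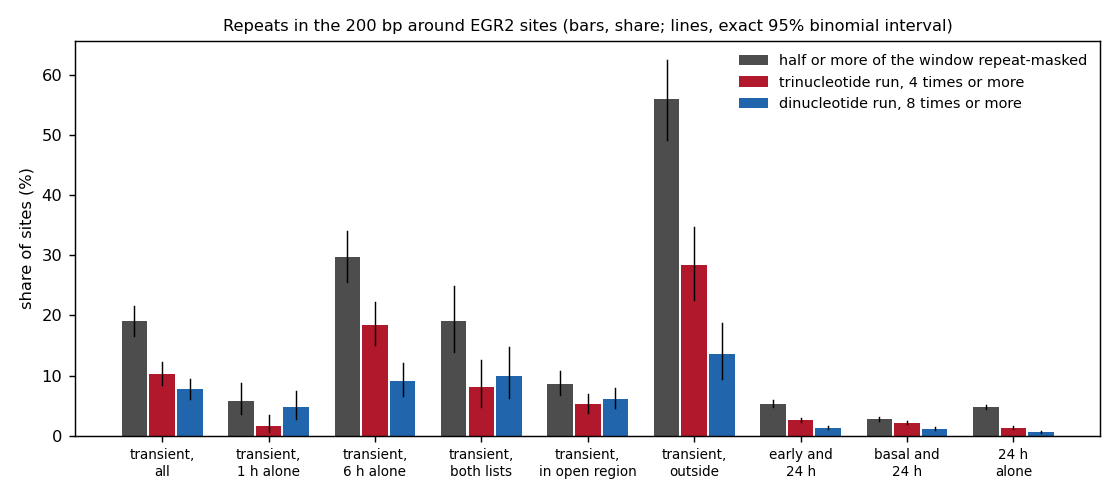
Share of sites (y axis, percent, with exact 95% binomial intervals) whose 200-bp window is at least 50% repeat-masked, holds a GGA or TCC (trinucleotide) run, or holds a CA or TG (dinucleotide) run, by class of site. Transient sites of the 6-hour list alone (29.7% masked) and those outside open regions (55.9%) stand highest, and sites of the 1-hour list alone (5.84%) lie near the other classes in masking but above them in CA or TG runs (4.77%).

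They differed in repeat content as well. The window was at least 50% repeat-masked in 199 of the 1050 transient sites with a window (19%, interval 16.6 to 21.5), compared with 5.35% of early sites that stayed listed at 24 hours, 2.72% of sites listed at basal and 24 hours, and 4.80% of sites of the 24-hour list alone. The share was 5.84% in the 1-hour list alone, 29.7% in the 6-hour list alone and 19% in both. Outside open regions it was 55.9% (49.2 to 62.4), and inside them 8.65%. GGA or TCC repeated at least 4 times occurred in 10.3% of transient sites (1.59% in the 1-hour list alone, 18.4% in the 6-hour list alone and 28.4% outside open regions), against 2.61%, 2.19% and 1.34% of the other classes. CA or TG repeated at least 8 times occurred in 7.71% (4.77% in the 1-hour list alone, 9.09% in the 6-hour list alone and 9.95% in both), against 1.33%, 1.15% and 0.583%.

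It was at these repeat sites that the basal and 24-hour EGR2 libraries differed most. At the 180 masked sites with tags, the median was 3.98 and 18.8 at basal, 43.6 and 40.8 at 6 hours, and 8.08 and 25.9 at 24 hours, and replicates were at least 4-fold apart at 45.0% of sites at basal, 1.11% at 6 hours and 30.0% at 24 hours. At the 577 less masked sites the basal medians were 19.2 and 26.9, the 24-hour medians 38.1 and 29.8, and 11.3% and 8.32% of sites were that far apart. The Ttc7b site shown above had 5.62 and 13.4 tags at basal, 7.23 and 18.3 at 1 hour, 106 and 49.9 at 6 hours and 9.87 and 31.7 at 24 hours. A fully masked site nearest Kif3c (chr12:3348174-3348387) had 1.40 and 16.1, 16.3 and 6.75, 80.3 and 36.2, and 2.24 and 12.5. In both, each 6-hour library exceeded every other library. Both were picked after their values were seen, Ttc7b by its 6-hour count, so nothing is read from that order.

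Short letter patterns were counted in the same 200-bp windows, on both strands. The loose EGR pattern GNGTGGGNG was in 31.1% of transient sites, 19.4% in the 1-hour list alone, 38.1% in the 6-hour list alone and 37.0% in both, against 8.48% of all open regions, 26.4% of early sites that stayed listed at 24 hours and 37.5% of sites listed at basal and 24 hours. Outside open regions 52.4% of the transient sites held it, inside them 25.2%. The strict core GCGTGGG, whose letters are a case of the first part of the loose pattern, was rarer (8.0%, against 2.83% of open regions and 17% of sites listed at basal and 24 hours). The STAT6 pattern TTCNNNNGAA had the opposite order, at 21% in the 1-hour list alone, 11.4% in both and 3.46% in the 6-hour list alone, against 6.03% of open regions. The C/EBP pattern TTGCNNAA followed it, at 15.1% and 5.63%, against 12% of open regions. The PU.1 pattern GAGGAAGT (7.33%, against 8.38%) and the AP-1 pattern TGANTCA (8.19%, against 16.8%) were no more frequent than in open regions. A KLF-type pattern, GGGNGTGG, which can share the letters GNGTGG with the EGR pattern, was in 25.1% of sites, against 9.79%. A match says that the letters are there, not that the factor binds them.

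Peaks of the other factors followed the split between the early lists. Of the transient sites in the 1-hour list alone, 47.7% overlapped a STAT6 peak at 1 hour, 49.9% at 6 hours and 58.6% at 24 hours. For sites in the 6-hour list alone these shares were 10.6%, 13% and 25.1%, and for sites in both 27.4%, 28.3% and 43.9%. A STAT6 peak of any time was at 51.0% of all transient sites (69.8% of those in the 1-hour list alone, 34.6% of those in the 6-hour list alone), against 74.4% of early sites that stayed listed at 24 hours. STAT6 was not restricted to the early hours at them: 32.5% had a STAT6 peak at basal and 40.9% at 24 hours, and 3.42% had one at 1 or 6 hours alone. PU.1 peaks were at 50.1% at basal and 54.5% at 24 hours (66.0% and 74.3% of early sites that stayed listed). C/EBPβ was at 14.7% and 26.3% (26.2% and 46.0%), and PPARγ at 7.79% and 31.0% (11.1% and 47.7%).

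**Figure D3:**
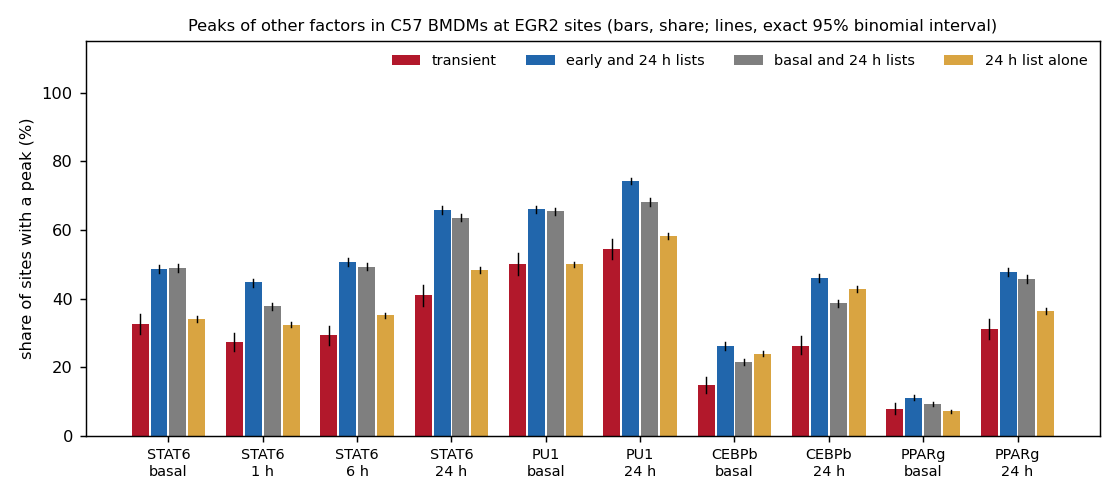
Share of sites (y axis, percent, with exact 95% binomial intervals) that overlap a peak of STAT6, PU.1, C/EBPβ or PPARγ in C57 macrophages (x axis, factor and time), by class of site. At each factor and time plotted the transient sites lie below the early sites that stayed listed at 24 hours, for example 27.3% against 44.7% for STAT6 at 1 hour.

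No peak of any of these factors at any time listed was at 25.9% of transient sites (23.2 to 28.6), which was 15.4% of those in the 1-hour list alone, 34.3% of those in the 6-hour list alone and 10.0% of early sites that stayed listed at 24 hours. Position relative to open chromatin moved with this. Within open regions 34.1% of the transient sites had a STAT6 peak at 1 hour, 55.7% a basal PU.1 peak and 18.9% no factor, whereas outside them the shares were 3.04%, 30.0% and 50.9%. Among sites under 50% masked, 22.3% had no factor.

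Sites absent from the C57 basal and 24-hour lists were often present in those of other strains. An EGR2 peak of at least 1 other strain was at 76.9% of them at basal and at 81.0% at 24 hours, and 13.6% had none in either, against 5.00% of early C57 sites that stayed listed at 24 hours. By strain, the basal list overlapped 62.6% of the transient sites in BALB, 57.8% in NOD, 7.79% in PWK and 22.2% in SPRET, and the 24-hour list 66.5%, 45.9%, 31.5% and 52.5%. The lists differ in length, from 6201 peaks (PWK, basal) to 39458 (SPRET, 24 hours), so shares cannot be compared between strains as binding. All 4 other strains had a peak at 2.95% of sites at basal and 16.1% at 24 hours.

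**Figure D4:**
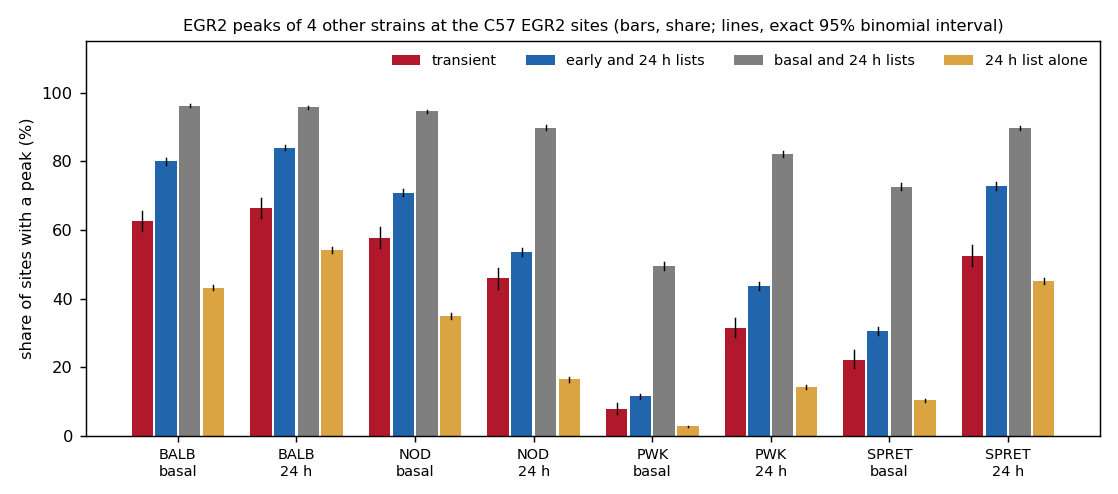
Share of sites (y axis, percent, with exact 95% binomial intervals) that overlap an EGR2 peak of BALB, NOD, PWK or SPRET macrophages at basal or 24 hours of IL-4 (x axis), by class of site. The basal BALB and NOD lists cover 62.6% and 57.8% of the transient sites, and the basal PWK list 7.79%.

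The repeat sites were among those shared with BALB and NOD. Of masked sites, 80.4% were in the basal BALB list and 74.4% in the basal NOD list, compared with 58.6% and 54.0% of less masked sites. In PWK and SPRET, which are more distant from C57, the basal lists held 6.03% and 9.55% of masked sites and 8.23% and 25.2% of the others. Sites of the 6-hour list alone were in the basal lists of BALB (70.8%) and NOD (64.6%) more often than sites of the 1-hour list alone (46.2% and 43.2%).

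H3K27ac and Pol II were compared over the 813 open regions with limma, on log2(normalized tags + 1) and with Benjamini-Hochberg adjustment over all 77955 regions at 0.05. The H3K27ac groups had 2 libraries each with 11780899 to 29050468 tags. Replicate 2 at 1 hour had 20.5% of its tags in the regions, against 41.2% to 69.7% in the other libraries. The basal libraries had the highest shares (69.7% and 63.8%). Regions of transient sites were more acetylated than most, with medians of 117 and 103 tags at basal, 85.0 and 40.3 at 1 hour, 98.6 and 105 at 6 hours and 93.4 and 78.8 at 24 hours. Over all regions the basal medians were 19 and 19.2. The level was not particular to transient sites: regions of sites listed at basal and 24 hours had 117 and 102 at basal. Their medians were lower at 1 hour as well (75.8 and 33.0). At basal, regions of early sites that stayed listed at 24 hours had 70.6 and 69.2, and those of the 24-hour list alone 33.2 and 33.5. In 143 of the 813 regions (17.6%) another class of EGR2 site was present too.

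H3K27ac changed at few of these regions. At 6 hours 26 regions (3.20%) rose, against 2.67% of all regions, and 13 (1.60%) fell, against 2.46%. At 24 hours 15 (1.85%) rose, against 1.13%, and 2 (0.246%) fell, against 0.327%. At 1 hour 16 (1.97%) were higher, against 1.37%, and 71 (8.73%) lower, against 8.36%. The lower calls at 1 hour depended on the scaling: with median-ratio scaling of the libraries 34 regions were higher (4.18%, against 2.02% of all regions) and 9 lower (1.11%, against 0.821%). With edgeR on the recovered reads 31 were higher (3.81%, against 2.07%) and 7 lower (0.861%, against 0.681%), and with DESeq2 63 were higher (7.75%, against 3.53%) and 25 lower (3.08%, against 2.79%). Leaving out replicate 2 of the basal group left far fewer calls at 1 hour, over all regions as well. Leaving out either 6-hour library did so at 6 hours. Such a fit has 1 library in a group, so its counts are not given. With median-ratio scaling the 6-hour calls were 40 higher (4.92%, against 3.24%) and 10 lower (1.23%, against 1.56%).

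Between 24 and 6 hours the sites of the 6-hour list ceased to be listed. Those of the 1-hour list alone were already unlisted at 6 hours. At the 87 of them with tags, though, the EGR2 medians were not lower at 6 hours (26.2 and 43.3) than at 1 hour (16.3 and 38.6). In that interval no region of a transient site was called in limma (0 higher and 0 lower, against 0.0731% and 0% of all regions). At an unadjusted p under 0.05 there were 23 (2.83%, against 5.26% of all regions), and edgeR and DESeq2 called 0 each. The median log2 change over the regions was −0.18, against −0.08 over all regions. Relative to basal the medians were −1.10 at 1 hour, −0.36 at 6 hours and −0.52 at 24 hours, against −0.63, −0.14 and −0.22 over all regions. With median-ratio scaling they were −0.32, −0.16 and −0.22, against 0.09, 0.04 and 0.05 over all regions. H3K27ac was highest at basal in 65.1% of the 737 regions with at least 16 tags in any group and highest at 6 hours in 19.7%, against 61.9% and 24.4% of all such regions.

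The 3 largest H3K27ac rises at 6 hours were at sites of the 1-hour list alone. These sites, the other Clec16a site below and the Rmi2 site are among the 290 without a row of EGR2 tags. How EGR2 tags ran there over time can therefore not be given. Tmem26, a membrane protein gene on the IL-4 response list, has a site 41 bp from its start (chr10:68723687-68723887) in the 1-hour list alone. Its region had 6.78 and 2.85 H3K27ac tags at basal, 157 and 21 at 1 hour, 225 and 382 at 6 hours and 307 and 84.7 at 24 hours. Each treated library lay above both basal ones. The log2 change was 5.75 (SE 0.79, limma adjusted p = 6.33e-04) at 6 hours and 4.89 (adjusted p = 0.00367) at 24 hours. Leaving out any 1 library kept both calls, but the change at 1 hour (3.43, adjusted p = 0.0190) lost its call without replicate 1 at 1 hour (2.01) or without replicate 2 at basal (2.92).

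**Figure D5:**
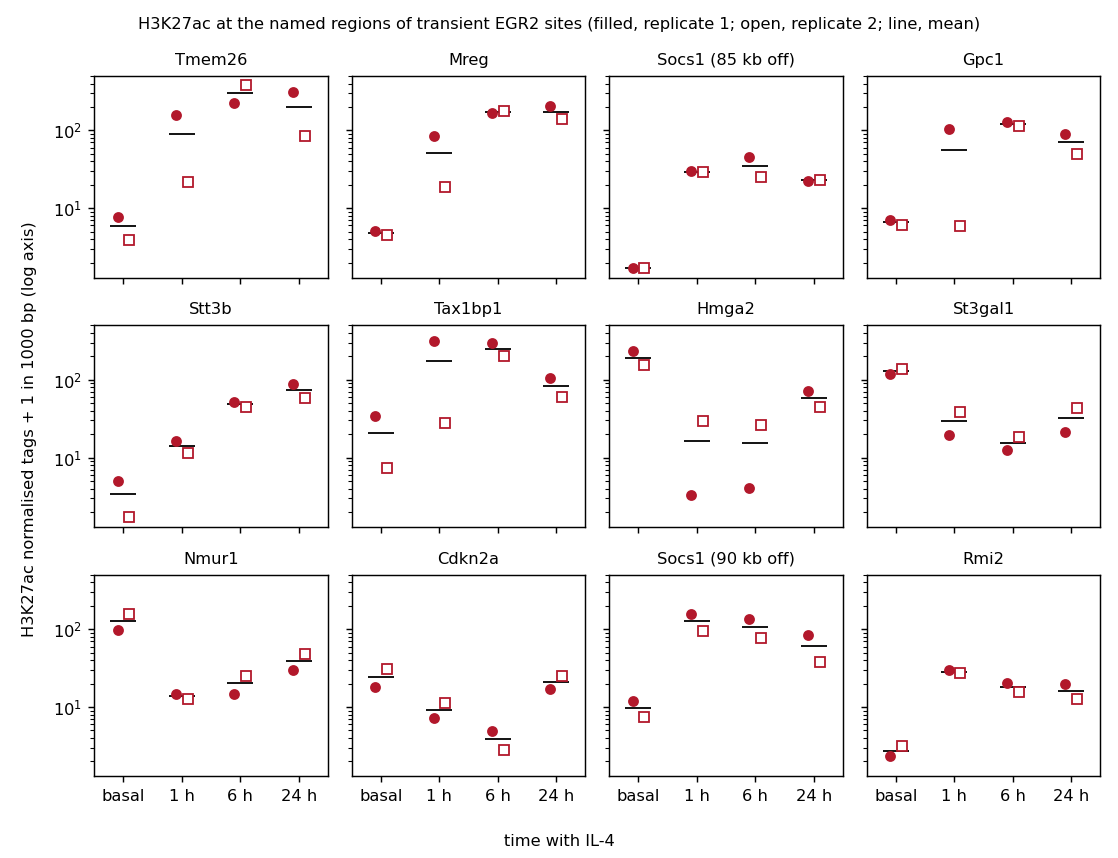
H3K27ac per library (y axis, normalized tags + 1, log scale) at basal, 1, 6 and 24 hours of IL-4 (x axis) at 12 regions of transient sites, named by the nearest gene; filled points are replicate 1, open squares replicate 2, and the short line is their mean. Tmem26, Mreg, Stt3b and the sites nearest Socs1 stay above both basal libraries at 24 hours, and Hmga2, St3gal1, Nmur1 and Cdkn2a are the falls.

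A site 229490 bp from the start of Mreg (chr1:71982716-71982918) had 4.07 and 3.57 tags at basal, 82.7 and 17.6 at 1 hour, 166 and 175 at 6 hours and 206 and 138 at 24 hours. The change was 5.15 at 6 hours (SE 0.64, limma adjusted p = 3.43e-04) and 5.14 at 24 hours (adjusted p = 8.25e-04). The 6-hour call held under all alternatives, and that at 1 hour (3.03) was lost only without replicate 2 at basal (2.96). STAT6 had peaks there at 1, 6 and 24 hours and none at basal. Pol II rose as well, from 0 to 2.03 tags in the 4 basal libraries to 23.6 and 19.5 at 6 hours.

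In Clec16a, an endosomal protein gene that lies near Socs1, 2 transient sites of the 1-hour list alone lay in the same stretch. The intronic site (chr16:10700226-10700534) had 0.680 and 0.710 tags at basal, 28.6 and 27.9 at 1 hour, 43.9 and 24.3 at 6 hours and 21.2 and 22.3 at 24 hours, with STAT6 peaks at 1, 6 and 24 hours and none at basal. Its change was 4.11 at 1 hour (SE 0.57, limma adjusted p = 0.00385), 4.31 at 6 hours (adjusted p = 5.82e-04) and 3.75 at 24 hours (adjusted p = 0.00248), and the 3 calls held under all alternatives. The site in an untranslated region of Clec16a (chr16:10695134-10695354) went from 10.8 and 6.42 tags to 158 and 94.0 at 1 hour, 135 and 76.7 at 6 hours and 82.3 and 37.4 at 24 hours, and STAT6 was listed there at all 4 times. Its rise at 1 hour (3.71, adjusted p = 0.00648) held under all alternatives, that at 6 hours (3.45) was lost without replicate 1 at 6 hours (3.05), and that at 24 hours (2.59, adjusted p = 0.0341) without replicate 1 at 24 hours (2.03) or replicate 2 at basal (2.26), among others.

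Rmi2, whose product works in the BLM helicase complex, has a promoter site 49871 bp upstream of Socs1 (chr16:10835298-10835516). Its region was low throughout, with 1.36 and 2.14 tags at basal, 28.6 and 26.5 at 1 hour, 19.2 and 14.6 at 6 hours and 18.7 and 11.8 at 24 hours. It rose by 3.39 at 1 hour (SE 0.58, limma adjusted p = 0.00877), a call held under all alternatives. The calls at 6 hours (2.71, adjusted p = 0.0124) and 24 hours (2.54, adjusted p = 0.0338) were lost without replicate 1 at 6 hours (2.52 at 6 hours, 2.54 at 24 hours) and without replicate 2 at 6 hours (2.90 and 2.54). The 24-hour call was also lost without either basal library (2.34 and 2.75), without either 24-hour library (2.23 and 2.85), with a pseudocount of 5 (1.57) and under the 2.5-fold rule of the study.

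The rises next in size at 6 hours were at Stt3b, Gpc1 and Tax1bp1. Stt3b, a subunit of the oligosaccharyltransferase, has a site 80819 bp upstream whose region went from 4.07 and 0.710 tags to 15.5 and 10.3, 51.6 and 43.8, and 86.6 and 57.8, so it was highest at 24 hours. The change at 6 hours was 4.04 (SE 0.62, limma adjusted p = 0.00143) and was lost without replicate 1 at 6 hours (3.93, adjusted p = 0.0557). Gpc1, a cell-surface proteoglycan gene, had 6.11 and 4.99 tags at its promoter at basal, 104 and 4.82 at 1 hour, 128 and 114 at 6 hours and 90.0 and 48.6 at 24 hours. Its rise of 4.22 at 6 hours (adjusted p = 0.0105) was lost without either 6-hour library (4.14 and 4.30). A site in an intron of Jazf1, nearest to Tax1bp1, had 33.2 and 6.42 at basal, 318 and 26.5 at 1 hour, 294 and 201 at 6 hours and 104 and 58.4 at 24 hours. Its rise of 3.94 (adjusted p = 0.0150) was lost without replicate 2 at basal (2.83) or without either 6-hour library (3.66 and 4.21).

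Of the 28 regions higher at 1 or 6 hours, 14 were called higher at both times, 12 at all 3 times and 15 were not called higher at 24 hours. The same overlap was not counted over all regions, so nothing particular to these sites is read from it. Failing the call at 24 hours does not show a return to basal, since none was called between 24 and 6 hours.

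The 4 largest falls at 6 hours were at Hmga2, St3gal1, Nmur1 and Cdkn2a. The promoter of Hmga2, a chromatin protein gene, had 231 and 154 tags at basal, 2.32 and 28.2 at 1 hour, 3.08 and 25.6 at 6 hours and 70.5 and 43.3 at 24 hours. It fell by 4.19 at 6 hours (SE 0.87, limma adjusted p = 0.0107), a call lost with DESeq2 (−3.52) and without replicate 1 at 6 hours (−2.84). St3gal1, a sialyltransferase gene, went from 118 and 138 to 11.6 and 17.6 at 6 hours (−3.07, adjusted p = 0.00628), lost without either 6-hour library (−2.79 and −3.36). Nmur1, a neuropeptide receptor gene, went from 95.7 and 158 to 13.9 and 24.3 (−2.67, adjusted p = 0.0121), and its window is 60.0% masked. The Cdkn2a promoter, of the gene for cell cycle inhibitors p16 and ARF, went from 17 and 29.9 to 3.85 and 1.83 (−2.67, adjusted p = 0.0177) and was at 16.1 and 24.3 at 24 hours. Both of the last calls were lost without replicate 2 at basal (−2.32 and −2.28) and without either 6-hour library (−2.29 and −3.06 for Nmur1, −3.06 and −2.28 for Cdkn2a). EGR2 tags at 6 hours were 27.9 and 30.6 for Hmga2 and 48.9 and 31.1 for Cdkn2a, against 2.34 to 16.1 and 6.09 to 28.2 at basal. Both are sites of the 6-hour list alone, so the rule selected for this order. Nothing is read from it beside the falls of H3K27ac.

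Among the IL-4 response genes, 11 of the 44 listed had a transient site within 50 kb of a start (25%, against 9.79% of all protein-coding genes), whereas 32 (72.7%) had an early site that stayed listed at 24 hours. They were Arg1, Ccl17, Pdcd1lg2, Socs1, Clec10a, Pparg, Tgm2, Cd36, Tmem26, Ocstamp and Tfec. The shares were 14.8% for JAK-STAT signaling genes (4 of 27), 23.7% for immediate early genes (9 of 38), 25% for macrophage identity genes (6 of 24), 22.5% for inflammatory genes (9 of 40) and 35.7% for lipid-handling genes (10 of 28). Of all protein-coding genes 40% were near an early site that stayed listed, so the IL-4 response genes had more EGR2 sites of both kinds around them, and nothing particular to a list is read from these counts.

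In all, 47 transient sites in an open region lay within 50 kb of a listed start. At 6 hours 4 of the 47 rose and 0 fell (background 2.67% and 2.46%). At 1 hour 2 were higher and 4 lower (background 1.37% and 8.36%), and at 24 hours 2 were higher and 1 lower (background 1.13% and 0.327%). Besides Tmem26 and Rmi2, these rises at 6 hours were Arg1 and Tfec. Arg1 had 65.1 and 59.9 H3K27ac tags at basal, 434 and 123 at 1 hour, 555 and 233 at 6 hours and 178 and 203 at 24 hours, all treated libraries above both basal ones. Its log2 change was 1.87 at 1 hour (SE 0.64, limma adjusted p = 0.0664), 2.51 at 6 hours (adjusted p = 0.0302) and 1.59 at 24 hours (adjusted p = 0.217). The call at 6 hours was lost without replicate 1 (2.57) or 2 (2.45) at basal and without replicate 1 (1.88) or 2 (3.13) at 6 hours. Tfec, a transcription factor gene of the MiT family, had 27.8 and 24.2, 172 and 37.2, 167 and 111, and 76.4 and 80.1. Its change of 2.35 at 6 hours (adjusted p = 0.0397) was lost without any 1 of the same 4 libraries (2.05 to 2.64).

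Other IL-4 response and lipid genes did not pass the test at 6 or 24 hours. Pparg had 44.8 and 41.4 tags at basal, 86.6 and 28.2 at 1 hour, 129 and 152 at 6 hours and 148 and 146 at 24 hours, with 1.68 at 6 hours (SE 0.58, limma adjusted p = 0.102). Pdcd1lg2, the gene for the checkpoint ligand PD-L2, had 100 and 27.1, then 153 and 135 at 6 hours and 244 and 138 at 24 hours (1.79 at 24 hours, adjusted p = 0.158). Rxra, the partner receptor of PPARγ, had 44.1 and 9.98 at basal and 97.8 and 124 at 6 hours (2.32, adjusted p = 0.0892). Cd36 went from 105 and 206 to 169 and 123 (−0.03). Ocstamp had 125 and 143 at basal and 98.6 and 108 at 6 hours (−0.37, limma adjusted p = 0.769). The Abca1 promoter, of a cholesterol exporter, had 354 and 180 at basal and 237 and 165 at 6 hours (−0.35).

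The next sites were named for their high H3K27ac. Others near immediate early and macrophage genes were low at basal, such as those of Dusp5, a phosphatase gene (4.07 and 12.1 tags), and Runx1, a transcription factor gene (18.3 and 32.8). Jun, Junb and Nr4a3, genes of inducible transcription factors with sites 1093, 1081 and 1737 bp upstream, had 594 and 518, 495 and 396, and 583 and 291 tags at basal and 346 and 447, 330 and 338, and 311 and 341 at 6 hours, none of them called. Zfp36 had 416 and 388 at basal and 232 and 278 at 6 hours (−0.66, limma adjusted p = 0.559). The Adgre1 promoter, of the F4/80 antigen, had 428 and 530 at basal, 216 and 103 at 1 hour, 209 and 204 at 6 hours and 203 and 240 at 24 hours (−1.20 at 6 hours, adjusted p = 0.243). The site near Tyrobp, the DAP12 adaptor gene, had the highest acetylation, 1210 and 1104 at basal against 350 and 179 at 1 hour, and was lower by the test (−2.20, SE 0.59, adjusted p = 0.0309). That call was lost without either basal library (−2.14 and −2.27), without any library of 6 or 24 hours and with edgeR (−1.40). The other lower calls at 1 hour were near Angptl4 (−2.29), Apoe (−1.84) and Junb (−1.93), and each was lost with median-ratio scaling (−1.51, −1.04 and −1.13), with edgeR and DESeq2, and on leaving out any of several libraries. At 24 hours the site 24327 bp from Irf1 was lower (140 and 116 tags at basal, 24.6 and 26.9 at 24 hours, −2.27, adjusted p = 0.0385), lost without either basal library (−2.13 and −2.40) and without any library of 6 or 24 hours.

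Pol II was measured in 4 basal libraries, 1 at 1 hour, 2 at 6 hours and 3 at 24 hours, so there was no test at 1 hour. At 6 hours 9 regions (1.11%) rose, against 0.428% of all regions, and 1 (0.123%) fell, against 0.137%. At 24 hours 10 (1.23%) rose, against 0.503%, and 1 (0.123%) fell, against 0.174%, and with the replicate number as a block 22 (2.71%) rose, against 1.27% of all regions, and 12 (1.48%) fell, against 1.09%. The median change was −0.06 at 6 hours and 0.02 at 24 hours. The 9 regions at 6 hours were those of Tmem26, Mreg, Stt3b, Zyx, Gpc1, Trib2, B3gnt2, Ap2m1 and Arg1, with changes from 2.38 (Arg1, SE 0.51, limma adjusted p = 0.0448) to 3.78 (Tmem26, SE 0.77, adjusted p = 0.0331). Each of the 10 calls at 6 hours was lost when either of the 6-hour libraries was left out, and each of the 11 at 24 hours when replicate 1 of 24 hours was.

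At Tmem26, Pol II tags were 51.2, 22.5, 3.22 and 5.06 at basal, 128 at 1 hour, 138 and 240 at 6 hours and 206, 224 and 60.3 at 24 hours, with no overlap between treated and basal libraries. At Stt3b they were 0 to 4.05 at basal, 33.4 and 21.4 at 6 hours and 45.4, 16.8 and 20.5 at 24 hours. The other regions, named here after their values were seen, were at Zyx, the focal adhesion protein zyxin (2.85, limma adjusted p = 0.0389), Trib2, a pseudokinase (2.71, adjusted p = 0.0278), B3gnt2, a glycosyltransferase (2.60, adjusted p = 0.0239), and Ap2m1, a clathrin adaptor subunit (2.43, adjusted p = 0.0215). The only fall was at the promoter of Icosl, the ligand of the T cell costimulator ICOS, at 6 hours (−2.71, adjusted p = 0.0326) and at 24 hours (−2.34, adjusted p = 0.0316). Without replicate 1 of 6 hours those changes at 6 hours were 2.30 for Zyx, 2.49 for Trib2 and B3gnt2, 2.27 for Ap2m1 and −2.06 for Icosl.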

How the data were processed

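ChIP-seq of EGR2, STAT6, PU.1, C/EBPβ, PPARγ, H3K27ac and Pol II in C57 macrophages, and of EGR2 in 4 other strains, was used (the series has 267 samples). The authors aligned reads with Bowtie2 to strain genomes, shifted them to mm10 and called peaks with HOMER in each replicate, keeping 1 list per group by irreproducible discovery rate, and the deposited peak score and count of each list come from that step. The deposited tag signal is HOMER tags per library scaled to 10000000, for EGR2 within merged peaks and for histone marks and Pol II in 1000 bp around ATAC-seq peaks. The versions that the study's methods state are not repeated here. EGR2, STAT6 and PPARγ cells were crosslinked with 2 agents, DSG and formaldehyde, and the other targets with formaldehyde alone.

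Sites were merged and overlapped with bedtools 2.31.1. Sites were annotated by GENCODE vM21, and sequences, repeat-masking and patterns were read from the RefSeq genome of mm10. Of 1403190 values, 100% came out as whole reads within 0.1. H3K27ac and Pol II were tested with limma 3.58.1 (R 4.3.3, eBayes with trend, pseudocount 1), which was tested on simulated data, and edgeR 4.0.16 and DESeq2 1.42.0 ran on the recovered reads. Shares carry exact binomial intervals from scipy 1.17.1 in Python 3.11.15. In total 4 columns of other tables match no sample and were not used.

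The sites, the gene lists and the rule for naming were chosen with earlier results of these data known. Named were the 6 best-scored sites of each early list, the 6 largest rises and 4 largest falls of H3K27ac at 6 hours, the 4 largest rises at 1 hour, the 12 most acetylated sites within 50 kb of a listed gene, and the sites nearest the edge of the rule. Of all these named sites, 1 is not reported here. Arg1, Tfec, Ttc7b, Kif3c, the genes with several sites and the regions called for Pol II were added after their values were seen. The authors' EGR2 table marks conditions differently from their lists: 92% of basal and 53.5% of 1-hour list peaks overlap a row so marked, and 100% at 6 and 24 hours. Same-numbered Pol II libraries at basal and 24 hours deviated together in all 3 pairs (correlations 0.109, 0.226 and 0.192), so the blocked count is given beside that comparison. In the other comparisons there were 2 pairs. For H3K27ac correlations ran from 0.014 to 0.452, the highest between basal and 24 hours and above the Pol II values just given. Whether the numbers pair those libraries is not settled by this. The main test takes no pairs, and blocked H3K27ac counts are given below.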

Additional observations from a re-analysis of the deposited data

Results flagged for a closer look

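In the basal Pol II libraries of 4 named regions, 1 of the 4 libraries lay far above the other 3 by Dixon's gap criterion at 95%. At the region nearest Zcchc2 the highest library had 42.4 normalized tags, with a median of 7.96 and a lowest value of 2.14. At the region nearest Tax1bp1 the highest was likewise 42.4, with a median of 3.75 and a lowest value of 1.01. At Hcst, beside Tyrobp, the highest was 349 (median 270, lowest 257). At the Adgre1 promoter it was 415 (median 271, lowest 251). Chance alone flags about 1 in 20 groups, and 32 groups were examined. Groups of 2 or 3 libraries, which include all H3K27ac and EGR2 groups, were not examined this way.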

How the results depend on the processing

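Calls among the 813 regions depended on the settings, as did calls over all regions. Under the study's 2.5-fold rule H3K27ac was higher in 4.92% of the 813 at 1 hour (2.31% of all regions), 8.24% at 6 hours (5.59%) and 7.01% at 24 hours (3.77%). It was lower in 31.1% (20.6%), 6.27% (8.63%) and 6.03% (7.09%). By that rule Pol II was higher in 4.31% at 6 hours (2.52%) and 4.31% at 24 hours (1.79%), and lower in 1.72% (2.57%) and 0.861% (1.55%). H3K27ac at 1 hour (87) became 143 with a filter on low regions, 43 with median-ratio scaling, 38 with edgeR and 293 under the study's 2.5-fold rule, and ran from 4 (without basal replicate 2) to 454 (without 1-hour replicate 1) on leaving out a library, with 37 without basal replicate 1 and 21 without either 6-hour library. At 6 hours (39) it became 87 with DESeq2 and 118 under the fold rule, with 3 and 6 without a 6-hour library, 17 without basal replicate 2, and 91 and 89 without a 1-hour library. At 24 hours (17) it became 30 with median-ratio scaling, 29 with edgeR, 59 with DESeq2 and 106 under the fold rule, with 6 without either 6-hour library, 8 without 24-hour replicate 2, 9 and 10 without a basal library, and 62 and 59 without a 1-hour library. Between 24 and 6 hours (0) the fold rule gave 25 (1.35% higher and 1.72% lower, against 1.31% and 1.86% of all regions). Leaving out any library added no call there. Pol II at 6 hours (10) became 16 with edgeR, 25 with DESeq2 and 49 under the fold rule, with 0 without either 6-hour library, 2 to 4 without basal replicate 2, 3 or 4, and 30 without basal replicate 1, and at 24 hours (11) 26 with DESeq2 and 42 under the fold rule, with 0 and 3 without 24-hour replicate 1 or 2, 4 to 6 without basal replicate 2, 3 or 4, and 22 without basal replicate 1. With the replicate number as a block, H3K27ac calls were 320, 109 and 72 at 1, 6 and 24 hours and 9 between 24 and 6 hours, and Pol II calls 34 at 24 hours. These H3K27ac libraries share only a number, so whether the block pairs samples is not known. The cause of these moves was not tested.

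The median H3K27ac changes kept their sign. With median-ratio scaling they were −0.32, −0.16 and −0.22 at 1, 6 and 24 hours and −0.08 between 24 and 6 hours, and leaving out a library gave −1.60 to −0.55, −0.47 to −0.24, −0.68 to −0.33 and −0.30 to −0.03. The rule gave 155 sites from the better-scored part of the early lists and 3915 when the basal and 24-hour lists were shortened. No other factor was at 22.3% of less masked sites and 18.9% of those in open regions, alternatives chosen after seeing the data, as was the 78.2% in open regions with an EGR2 peak of another strain at 24 hours. The loose EGR pattern was in 25.9% of 100-bp windows.

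Of the alternatives for named regions, 976 kept direction and side of the threshold, 194 lost the call, 6 gained it and 5 reversed an uncalled H3K27ac change at 6 hours. Without basal replicate 2 these were −0.20 at the ribosomal RNA site nearest Esp38 (0.54 with all libraries, 1.27 without basal replicate 1) and −0.34 at Fas (0.64, 1.62). Without basal replicate 1 they were 0.26 at Traf1 (−0.48, −1.21 without replicate 2), 0.16 at Nr4a3 (−0.34, −0.84) and −0.12 at Ripk3 (0.71, 1.54). With 2 libraries per group, leaving out 1 assumes that the lone library varies like the other groups. Of the shares, 44 stayed within their interval and 71 moved.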

Other observations

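Other marks were compared at basal and 24 hours alone, as values with no test. In C57 the median log2 change of H3K4me2, a mark of enhancers and promoters, over 764 regions of transient sites was −0.78, against −0.66 over all regions of that table. The promoter mark H3K4me3 changed by −0.23, against 0.12. In the other strains the median H3K27ac change over the regions of these sites was −0.25 in BALB, −0.28 in NOD, −0.19 in PWK and −0.10 in SPRET, against −0.26, −0.22, −0.17 and −0.07 over all regions of each strain.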
